A study of Mus musculus with 6 samples.

Results

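Chronic cerebral hypoperfusion, a lasting fall in blood flow to the brain, was modelled in mice by bilateral carotid artery stenosis (BCAS), and the hippocampal expression of 8 C-type lectin receptor genes of myeloid cells is described here. The members, Clec4a1, Clec4a2, Clec4a3, Clec4d, Clec4e, Clec4n, Clec5a and Clec12a, were chosen by symbol as receptors of this family that myeloid cells carry, and they are 8 of the 54752 genes in the count tables. Their RNA was measured by RNA-seq of the whole right hippocampus in 3 sham mice and 3 BCAS mice, with 1 library per mouse. All 6 mice were wild-type male C57BL/6 mice by their labels (C57BL/6 J in the methods of the study). They had a labelled time of 14 weeks, which is their age, and tissue was taken 3 weeks after surgery. In the BCAS group both common carotid arteries were fitted with microcoils, whereas the sham group underwent surgery without them. The samples are whole tissue, so each value sums over every cell type of the hippocampus. Between 29652456 and 35607098 reads per library were counted on genes.

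C-type lectin receptors are surface proteins of macrophages, microglia, monocytes, neutrophils and dendritic cells that bind sugars and glycolipids of microbes, and in some cases products of dying cells. Activating receptors of the family signal through small adaptor proteins such as the Fc receptor gamma chain (Fcer1g) or Tyrobp, which recruit the kinase Syk and, through Card9, switch on inflammatory genes. Inhibitory receptors carry a motif in their own tail that recruits phosphatases such as Ptpn6.

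Of the 8 receptor genes, 6 had enough counts to be tested, and 5 of these were up-regulated in BCAS mice, namely Clec4a1, Clec4a3, Clec4n, Clec5a and Clec12a. A gene was called where its adjusted P in edgeR's quasi-likelihood test was below 0.05 and its log2 fold change exceeded 1 in size, and 8.47% of the 18617 tested genes were called higher and 0.999% lower. Clec5a, Clec4n and Clec12a rose about 7.5-fold to 8.1-fold in mean CPM (counts scaled to a common library total), whereas Clec4a3 rose 3.7-fold and Clec4a1 3.5-fold. Clec4a2 had a log2 fold change of 0.55 and was not called. Clec4d and Clec4e were too low for the test. The median log2 fold change of the 6 tested members was 2.38, against 0.018 for all tested genes. Of these 6, Clec4a1, Clec4n and Clec12a reached the filter on low counts only through the BCAS mice, where they are high, so the count of 5 and this median are descriptions and no support for a rise of the group. All 6 tested members had positive fold changes with TMM, with RLE size factors and with library totals, but Clec4a1, Clec4a2, Clec4a3 and Clec5a turned negative when libraries were scaled by general myeloid marker counts, as given further on. In bulk tissue, more cells of a type and more RNA per cell cannot be told apart, which holds for every rise reported here.

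Every BCAS mouse was above every sham mouse for 6 of the 8 members, which adds Clec4d to the 5 up-regulated genes. This separation was seen in 17.2% of the 31988 genes with at least 1 count and in 25.3% of the tested genes. The lowest of the BCAS mice was mouse 1 for 7 members and mouse 3 for Clec4a2. The highest was mouse 3 for Clec4a1, Clec4a3, Clec5a and Clec12a, and mouse 2 for Clec4a2, Clec4d, Clec4e and Clec4n.

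**Figure D1:**
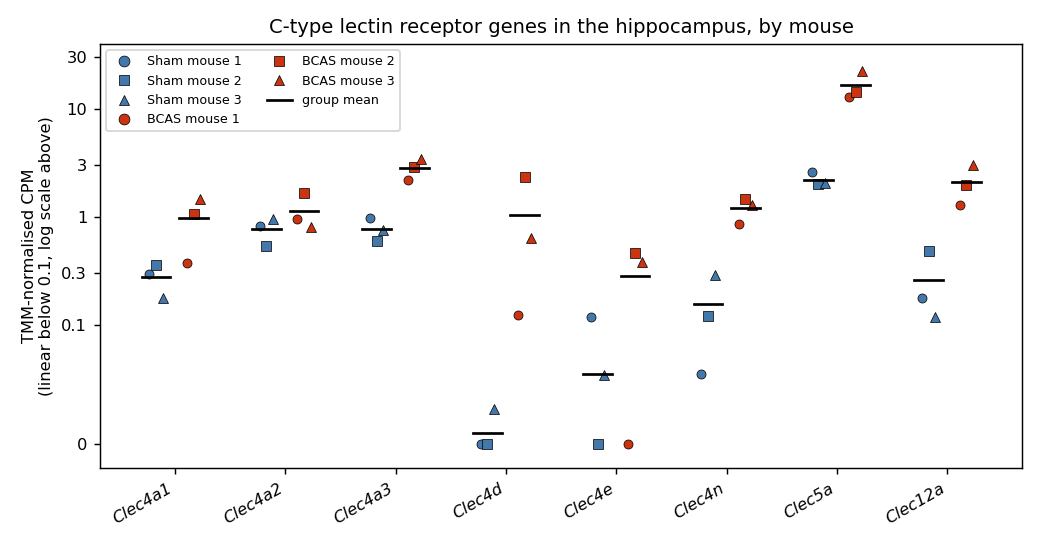
Normalised expression of the 8 receptor genes in each of the 6 mice, in TMM-normalised CPM on an axis that is linear below 0.1 and logarithmic above, with sham mice in blue, BCAS mice in red and a bar at each group mean. All red points lie above all blue points for Clec4a1, Clec4a3, Clec4d, Clec4n, Clec5a and Clec12a, and the groups overlap for Clec4a2 and Clec4e.

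Some facts of the libraries bear on these values. The 10 microglia markers were all up-regulated, and their summed level was 291 to 313 CPM in sham mice, against 1569 to 2533 CPM across BCAS mice. The 6 markers of myeloid cells in general were also all up-regulated, from 133 to 144 CPM in sham mice, against 865 to 1440 CPM across BCAS mice. The 7 markers of hippocampal neurons were at 5311 to 5427 CPM in sham mice, against 2468 to 3716 CPM across BCAS mice, with 2 of 7 down-regulated. The libraries differed in choroid plexus RNA, whose 4 markers summed to 39.7 CPM in BCAS mouse 2 and 69.5 CPM in sham mouse 3, but to 982 to 5893 CPM in the other 4 mice. The groups overlapped in it, and no choroid plexus marker was called. Every member was also tested without each mouse in turn.

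Clec5a, an activating receptor that signals through Tyrobp and Hcst, had the highest level per exonic length of the 8 members in BCAS mice. It had 88, 67 and 70 counts in sham mice 1 to 3, against 419, 437 and 698 counts in BCAS mice 1 to 3. Each BCAS mouse was thus far above each sham mouse, and BCAS mouse 3 stood above the other two. Mean expression was 2.21 ± 0.332 CPM in the sham group against 16.6 ± 5.07 CPM in the BCAS group (SD, n = 3), with a log2 fold change of 2.90 (SE 0.24, adjusted P = 5.7e-05, edgeR). Clec5a stayed up-regulated when any single mouse was left out, with log2 fold changes of 2.62 to 3.05. The gene lies on the minus strand of chromosome 6 at chr6:40574894-40585821 in mm10, away from the other members. Because of this level its upstream bases are shown here from RefSeq (GRCm38.p6, minus strand, chr6:40585806-40586055; the last bases fall inside the gene as the count tables place it), read 5′ to 3′ towards the gene, with no capitals because none of the motifs searched was found in it.
Clec5a: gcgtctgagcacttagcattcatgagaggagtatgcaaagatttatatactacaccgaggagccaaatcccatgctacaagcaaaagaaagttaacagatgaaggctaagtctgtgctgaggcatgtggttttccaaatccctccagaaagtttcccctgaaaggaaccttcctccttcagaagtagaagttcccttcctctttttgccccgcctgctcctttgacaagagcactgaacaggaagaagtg

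The members Clec4n, Clec4d and Clec4e encode activating receptors that signal through the Fc receptor gamma chain and lie next to one another. Clec4n encodes Dectin-2, a receptor for mannose-rich sugars of fungi. It had 2, 4 and 10 counts in sham mice 1 to 3, against 28, 44 and 40 counts in BCAS mice 1 to 3. The groups did not overlap, although sham mouse 3 had more counts than the other sham mice together. Mean expression was 0.157 ± 0.120 CPM in the sham group against 1.20 ± 0.306 CPM in the BCAS group (SD, n = 3). The log2 fold change of Clec4n was 2.90 (SE 0.55, adjusted P = 0.00452, edgeR), and it was 2.51 to 3.69 with any mouse left out, past the threshold each time. Clec4n passed the filter on low counts only through the BCAS mice, so these calls are descriptions and no support for a rise.

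Clec4d encodes a receptor for mycobacterial glycolipids that pairs with the product of Clec4e. It had 0, 0 and 1 counts in sham mice 1 to 3, against 4, 70 and 20 counts in BCAS mice 1 to 3. The sham mice were therefore at or under the detection limit of 3 counts per library, which corresponds to 0.0874 to 0.0994 CPM, and BCAS mouse 1 was barely above it. BCAS mouse 2 held most of the Clec4d counts of its group. Mean expression in BCAS mice was 1.03 ± 1.15 CPM (SD, n = 3), so the SD exceeded the mean. The ratio of the summed counts, 94 in BCAS mice to 1 in sham mice, was 102 after correction for library size, with an exact 95% interval of 17.8 to 4062 that covers counting error alone. Clec4d reached 10 counts in only 2 libraries and was left out by the filter on low counts. With every gene of at least 1 count tested, edgeR gave it an adjusted P of 5.72e-05, DESeq2 8.58e-05 and limma-voom 0.0174, and with any mouse left out of this unfiltered edgeR fit, an alternative chosen after seeing the data, the adjusted P was 1.94e-07 to 0.00927. With the filter kept, Clec4d was tested in 4 of the fits that leave out a mouse, and edgeR gave an adjusted P of 0.0521 without sham mouse 1 and 0.0528 without sham mouse 3, which missed the threshold, against 0.0398 without sham mouse 2 and 0.00174 without BCAS mouse 1.

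Clec4e encodes Mincle, which binds mycobacterial cord factor and also a spliceosome protein released by dying cells, the product of Sf3b3. It had 4, 0 and 2 counts in sham mice 1 to 3, against 0, 14 and 12 counts in BCAS mice 1 to 3. BCAS mice 2 and 3 were above all sham mice, but BCAS mouse 1 had no count, which allows up to 0.0923 CPM, so the groups overlapped. Mean expression was 0.0587 ± 0.0590 CPM in the sham group against 0.283 ± 0.248 CPM in the BCAS group (SD, n = 3). The ratio of the summed counts was 4.69, with an exact 95% interval of 1.89 to 13.9. As for Clec4d, this interval leaves out the spread between mice and is too narrow even for counting error. With every gene of at least 1 count tested, the log2 fold change of Clec4e was 2.18 with an adjusted P of 0.227 in edgeR. With a mouse left out of this fit it was 1.63 (without sham mouse 2) to 3.09 (without sham mouse 1), and the adjusted P was 0.0627 (without BCAS mouse 1) to 0.496, so that no difference beyond the spread between mice was detectable at this depth. Its ligand gene Sf3b3 was measured at 73.4 ± 1.46 CPM in the sham group against 69.7 ± 0.607 CPM in the BCAS group (SD, n = 3), with a log2 fold change of -0.07 (adjusted P = 0.406, edgeR).

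Clec4d and Clec4e are neighbours whose 3′ ends face each other, Clec4d on the plus strand at chr6:123262111-123275265 and Clec4e on the minus strand at chr6:123281789-123289870 (mm10). Both had their highest level in BCAS mouse 2 and their lowest BCAS level in mouse 1. The 250 bases before each start are shown from RefSeq (GRCm38.p6) to set these neighbours side by side, at chr6:123261857-123262106 on the plus strand for Clec4d and chr6:123289872-123290121 on the minus strand for Clec4e. Each is written 5′ to 3′ towards its gene, and the capitals mark a match to a motif of the myeloid factors of the C/EBP family.
Clec4d: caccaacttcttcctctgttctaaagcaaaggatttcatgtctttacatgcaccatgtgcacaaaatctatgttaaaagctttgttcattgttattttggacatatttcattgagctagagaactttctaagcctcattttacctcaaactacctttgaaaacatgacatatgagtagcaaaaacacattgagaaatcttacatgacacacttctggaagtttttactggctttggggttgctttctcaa
Clec4e: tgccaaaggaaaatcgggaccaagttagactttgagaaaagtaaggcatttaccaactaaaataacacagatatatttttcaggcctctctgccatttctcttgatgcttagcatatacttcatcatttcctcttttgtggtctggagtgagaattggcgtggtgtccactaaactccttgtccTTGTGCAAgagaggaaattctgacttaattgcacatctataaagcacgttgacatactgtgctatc

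Of the 8 members, 7 had a window of 250 bases before the start in the RefSeq table, and Clec4n had none. The Clec4a2 window, chr6:123122440-123122689, lies inside the gene as counted, which starts at chr6:123106428. Clec4a3 had windows at chr6:122952265-122952514 and chr6:122952394-122952643, and the latter runs past the start of the gene as counted. Motifs bound by 4 kinds of myeloid transcription factor were searched on both strands, and they were chosen with the results known. TTGCNNAA, the C/EBP motif, was found in Clec4e at bases -66 to -59 before the start, where the match on the minus strand is shown in capitals above. The same motif was found in Clec12a at bases -140 to -133 on both strands, in a window before a RefSeq start that lies inside the gene as the count tables place it. It is present in 9.56% of the 32851 windows of this length in the table. TGANTCA, the AP-1 motif, was found in Clec12a at bases -213 to -207 and is present in 6.75% of windows. AGGAAGT, an ETS motif of the kind bound by PU.1, and the interferon-stimulated response element (ISRE) were not found in these letters in the windows of the 7 members, and they are present in 7.69% and 2.98% of all windows. None of the 4 motifs was thus found in 5 of the 7 members, including 4 that were up-regulated or separated between the groups, Clec4a1, Clec4a3, Clec4d and Clec5a.

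Among the inhibitory receptors, Clec12a binds uric acid crystals and carries the inhibitory motif in its tail. It had 6, 16 and 4 counts in sham mice 1 to 3, against 42, 59 and 94 counts in BCAS mice 1 to 3. All BCAS mice were above all sham mice, and sham mouse 2 was the highest sham mouse. Mean expression was 0.257 ± 0.194 CPM in the sham group against 2.09 ± 0.867 CPM in the BCAS group (SD, n = 3). The log2 fold change of 3.00 (SE 0.55, adjusted P = 0.00383, edgeR) was the largest among the 6 tested members, and it was 2.64 to 3.79 with any mouse left out, past the threshold each time. Clec12a passed the filter on low counts only through the BCAS mice, so these calls are descriptions and no support for a rise. The gene lies at chr6:129342691-129365303 on the plus strand (mm10).

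Clec4a2, the other member with an inhibitory motif and a counterpart of human DCIR, had 28, 18 and 33 counts in sham mice 1 to 3, against 31, 50 and 25 counts in BCAS mice 1 to 3. The groups overlapped, since BCAS mice 1 and 3 lay within the sham range and only BCAS mouse 2 was above it. Mean expression was 0.775 ± 0.216 CPM in the sham group against 1.14 ± 0.456 CPM in the BCAS group (SD, n = 3). The log2 fold change of 0.55 (SE 0.40, adjusted P = 0.336, edgeR) was within the spread between mice, and adjusted P was at least 0.254 under every alternative except the scaling by marker counts. Clec4a2 shares 64 of its 2990 exonic windows of 100 bases, 2.14%, with its relative Clec4a4, which had 1 count in the 6 libraries together. No other member shared such a window with another gene, and no member's exons overlapped those of another gene.

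Clec4a1 and Clec4a3 are close relatives of Clec4a2 in the same gene cluster. Clec4a3 had 33, 20 and 26 counts in sham mice 1 to 3, against 71, 87 and 108 counts in BCAS mice 1 to 3. Its groups were well apart, the lowest BCAS mouse having 71 counts and the highest sham mouse 33. Mean expression was 0.776 ± 0.188 CPM in the sham group against 2.84 ± 0.639 CPM in the BCAS group (SD, n = 3). The log2 fold change of Clec4a3 was 1.87 (SE 0.30, adjusted P = 0.00229, edgeR), with 1.70 to 2.06 when any mouse was left out, past the threshold each time.

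Clec4a1 had 10, 12 and 6 counts in sham mice 1 to 3, against 12, 32 and 46 counts in BCAS mice 1 to 3. BCAS mouse 1 and sham mouse 2 had the same count, and the groups were separated in CPM only because the normalised library total of BCAS mouse 1 was smaller. Mean expression was 0.276 ± 0.0935 CPM in the sham group against 0.968 ± 0.558 CPM in the BCAS group (SD, n = 3). The log2 fold change was 1.79 (SE 0.57, adjusted P = 0.0403, edgeR). Clec4a1 passed the filter on low counts only through the BCAS mice, so its call is a description and no support for a rise. This call was the least stable of the 5. It was lost without sham mouse 1 (adjusted P = 0.107), sham mouse 2 (0.0735), sham mouse 3 (0.137), BCAS mouse 2 (0.0760) or BCAS mouse 3 (0.161) in edgeR, with limma-voom (adjusted P = 0.0894), with glmTreat against a log2 fold change of 1 (adjusted P = 0.555) and with the replicate number as a block (adjusted P = 0.0951), and it was kept without BCAS mouse 1 (adjusted P = 0.0116, edgeR).

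**Figure D2:**
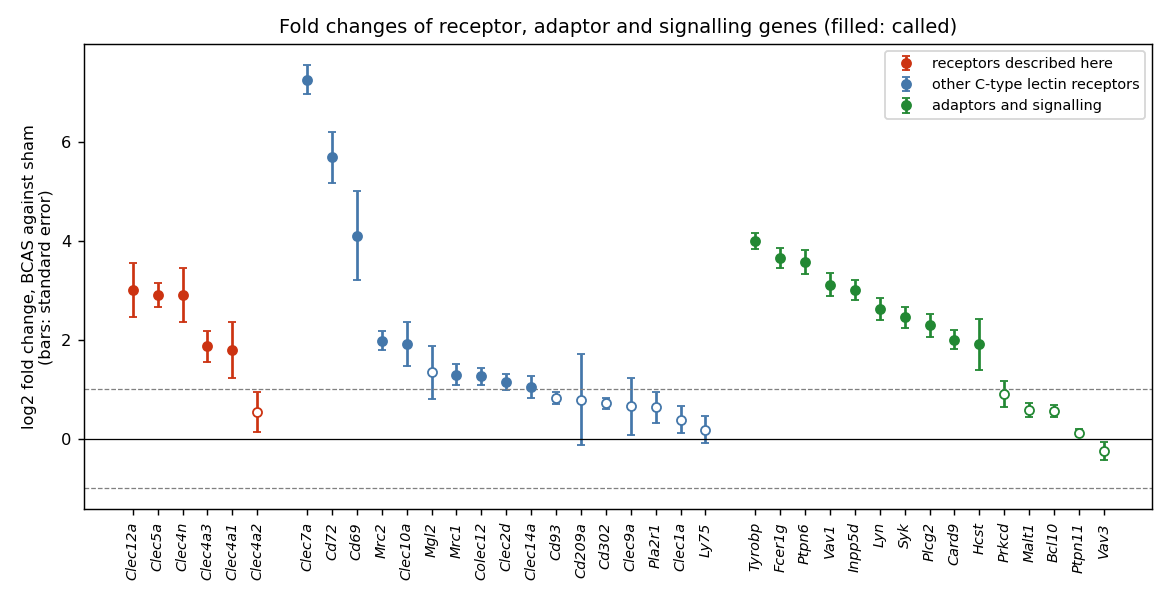
Log2 fold change of BCAS against sham mice with its standard error (edgeR, 3 mice per group) for the tested receptor genes described here in red, other C-type lectin receptor genes in blue and adaptor and signalling genes in green, where filled circles passed both thresholds (adjusted P 0.05, and log2 fold change of 1 in size, dashed lines). Lectin genes at or under 3 counts in every sham library and 1 adaptor and signalling gene are not drawn. Clec4n, Clec5a and Clec12a lie between 2.90 and 3.00, below Clec7a at 7.25, and Clec4a2 is open at 0.55; with scaling by general myeloid marker counts Clec5a, Clec4a1, Clec4a2 and Clec4a3 turn negative.

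The 6 members outside Clec5a and Clec12a lie in 1 stretch of chromosome 6 in the order Clec4a1, Clec4a3, Clec4a2, Clec4n, Clec4d and Clec4e, from chr6:122921848 to chr6:123289870 (mm10). Clec4a1 is at chr6:122921848-122934619, Clec4a3 at chr6:122952515-122969875, Clec4a2 at chr6:123106428-123143999 and Clec4n at chr6:123229843-123247021, all on the plus strand. Another 3 C-type lectin genes lie between them, and they were barely seen. Clec4b1 and Clec4b2 had no count in any of the 6 libraries and Clec4a4 had 1 count. Neighbours in this stretch thus ranged from no counts to 345 counts in all for Clec4a3.

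To compare levels between members, CPM was divided by the exonic length in kb given in the count tables. In BCAS mice Clec5a was highest at 4.32 ± 1.32 CPM per kb (SD, n = 3), followed by Clec4a3 at 2.14 ± 0.482 CPM per kb, and the mice of one did not overlap those of the other. The 5 members Clec4n (0.845 ± 0.216 CPM per kb), Clec4d (0.643 ± 0.718), Clec4a1 (0.621 ± 0.358), Clec4a2 (0.389 ± 0.156) and Clec12a (0.377 ± 0.157) came next. All 5 were below Clec4a3, and each overlapped its neighbours among the 5 across mice. Clec4e was lowest at 0.0569 ± 0.050 CPM per kb, below Clec12a in every BCAS mouse.

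In sham mice the order was different, with Clec4a3 at 0.585 ± 0.142 CPM per kb (SD, n = 3) and Clec5a at 0.576 ± 0.0864 CPM per kb, which overlapped. Clec4a2 followed at 0.265 ± 0.0738 CPM per kb, below both in every sham mouse. Clec4a1 (0.177 ± 0.0600 CPM per kb), Clec4n (0.110 ± 0.0849) and Clec12a (0.0465 ± 0.0351) came after it, each overlapping its neighbour, and Clec4e and Clec4d were at or near the detection limit. Clec4a2 thus ranked 3 of 8 in sham mice and 6 of 8 in BCAS mice. When the longest coding length was used in place of the exonic length, Clec5a led in sham mice as well, with 3.88 CPM per kb against 1.09 for Clec4a3, because little of the exonic length of Clec5a is coding (570 of 3840 bases). The order in BCAS mice changed as well, with Clec12a moving from 7 of 8 to 3 of 8 at 2.60 CPM per kb, behind Clec5a (29.1) and Clec4a3 (4.0) and ahead of Clec4n (1.91), Clec4d (1.56), Clec4a2 (1.45) and Clec4a1 (1.32).

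The receptors were then set against the rise of myeloid marker RNA, which the 6 general myeloid markers Csf1r, Aif1, Itgam, Ptprc, Laptm5 and Spi1 measure in each library. These markers held 4451 to 4943 counts in sham mice and 28118 to 44957 counts in BCAS mice. Per 10000 of these counts, Clec5a had 181, 151 and 142 counts in sham mice 1 to 3 and 149, 149 and 155 in BCAS mice 1 to 3. The groups overlapped, with means of 158 ± 20.5 and 151 ± 3.72 (SD, n = 3). Clec4n likewise overlapped at 11.1 ± 8.27 in sham and 11.3 ± 3.24 in BCAS mice, and Clec12a at 18.8 ± 15.0 and 18.6 ± 3.23.

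Clec4a2 had 57.5, 40.4 and 66.8 counts per 10000 marker counts in sham mice 1 to 3 and 11, 17 and 5.56 in BCAS mice 1 to 3. Clec4a3 had 67.8, 44.9 and 52.6 in sham mice and 25.3, 29.6 and 24.0 in BCAS mice. Clec4a1 had 20.5, 27.0 and 12.1 in sham mice and 4.27, 10.9 and 10.2 in BCAS mice. In all 3 genes every BCAS mouse was below every sham mouse, as were 94.8% of all tested genes on this scale. Clec4d had 0, 0 and 2.02 in sham mice 1 to 3 but 1.42, 23.8 and 4.45 in BCAS mice, and Clec4e had 8.21, 0 and 4.05 against 0, 4.76 and 2.67. The groups overlapped for both, with BCAS mouse 2 the highest of all mice for Clec4d.

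The same scale was applied in edgeR by using the marker counts as library sizes, which moved the median log2 fold change of all tested genes to -2.88 and called 95.5% of them lower in BCAS mice and 0.747% higher. On it, Clec4n (0.01), Clec12a (0.01) and Clec5a (-0.06) had log2 fold changes near 0, with adjusted P of 0.990, 0.987 and 0.844 in edgeR, so that they lay about as far above the median gene as in the TMM fit. Clec4a2 was called lower at -2.31 (adjusted P = 5.06e-06, edgeR), as was Clec4a3 at -1.07 (adjusted P = 0.0178), while Clec4a1 had -1.21 (adjusted P = 0.0539). With the 10 microglia markers as the scale, the median of all genes was -2.57 and 94.2% of genes were called lower. Clec4a2 was called lower there too at -1.99 (adjusted P = 7.14e-05, edgeR), and Clec4a3 had -0.76 (0.0882), Clec4a1 -0.89 (0.154), Clec5a 0.25 (0.425), Clec4n 0.32 (0.636) and Clec12a 0.33 (0.568). Whether the members differ from one another in fold change was not tested.

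**Figure D3:**
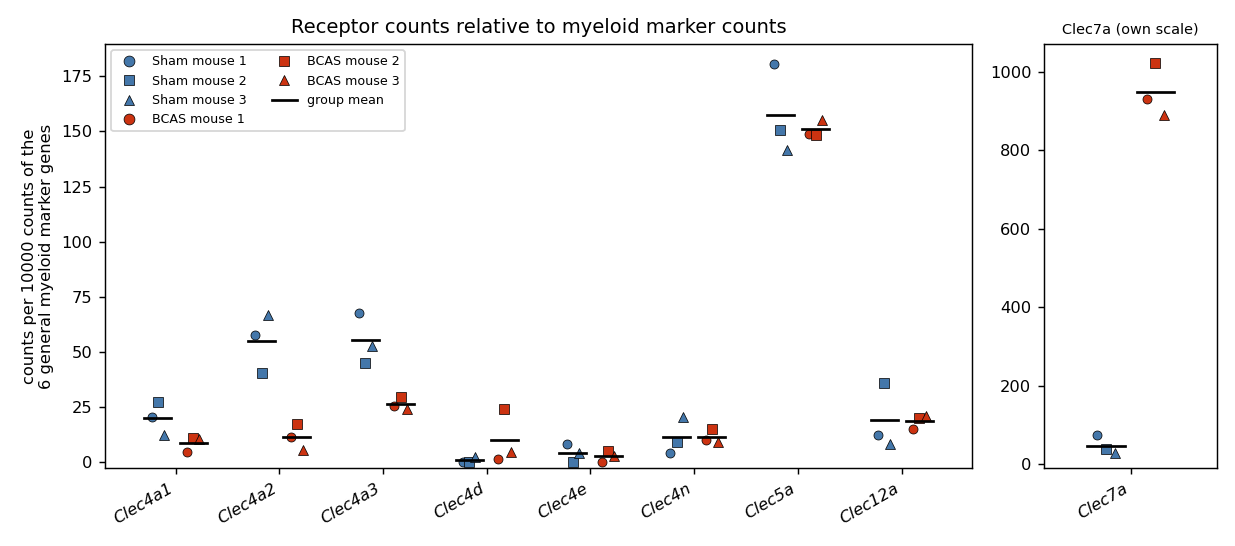
Counts of each receptor gene per 10000 counts of the 6 general myeloid marker genes in each of the 6 mice (sham in blue, BCAS in red, bars at group means), with Clec7a on an axis of its own. Clec4n, Clec5a and Clec12a overlap between groups, the BCAS mice lie below the sham mice for Clec4a1, Clec4a2 and Clec4a3, and Clec7a is at 28.3 to 73.9 in sham mice against 889 to 1022 across BCAS mice.

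Clec12a, Clec4d and Clec4e are also known from neutrophils and monocytes, so the markers of those cells are given beside them. The 8 neutrophil markers summed to 0.628 to 2.65 CPM in sham mice, against 0.769 to 4.11 CPM across BCAS mice, with 2 of 8 tested and neither called. Ly6g, which defines mouse neutrophils, was at 0 in all 6 libraries. S100a8 had 2, 4 and 9 counts in sham mice 1 to 3 and 5, 36 and 24 in BCAS mice 1 to 3, and the neutrophil receptor gene Cxcr2 had 0, 4 and 0 counts in sham mice and 2, 20 and 15 in BCAS mice. Both had their highest count in BCAS mouse 2 and their lowest BCAS count in mouse 1, but the list did not share one order. Among the BCAS mice, S100a9, Mmp8 and Camp were highest in mouse 3 and Ngp in mouse 1, and Ngp, with 19, 6 and 25 counts in sham mice 1 to 3, had 4, 0 and 0 counts in BCAS mice 1 to 3, all below the sham mice.

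The 5 monocyte markers summed to 21.1 to 24.6 CPM in sham mice, against 33.2 to 46.7 CPM across BCAS mice, and Ly6c2, Ccr2 and Plac8 were up-regulated. Most of that sum was Vcan, which had means of 21.9 and 29.9 CPM and was not called, while the means went from 0.00997 to 1.97 CPM for Ly6c2, from 0.501 to 4.35 CPM for Ccr2 and from 0.0782 to 1.95 CPM for Plac8. Ly6c2 and Plac8 passed the filter on low counts only through the BCAS mice, so their calls are descriptions and no support for a rise. Of the 5 border macrophage markers, which summed to 9.36 to 13.8 CPM in sham mice, against 23.4 to 31.2 CPM across BCAS mice, 3 were up-regulated. The 6 dendritic cell markers summed to 15.0 to 18.8 CPM in sham mice, against 52.5 to 59.5 CPM across BCAS mice, with 2 of the 4 tested up-regulated. Most of that sum in BCAS mice was Itgax, which went from 0.532 to 39.6 CPM, while Flt3 (7.73 and 6.27 CPM) and Zbtb46 (8.96 and 9.40 CPM) were not called. The other dendritic marker called, Xcr1, passed the filter on low counts only through the BCAS mice, so its call is a description only. The 6 markers of T and NK cells summed to 0.0885 to 0.495 CPM, against 4.61 to 5.67 CPM, and the 4 tested, which were up-regulated, all passed the filter only through the BCAS mice. The part of any of these cells in the levels of the 8 receptors was not tested.

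**Figure D4:**
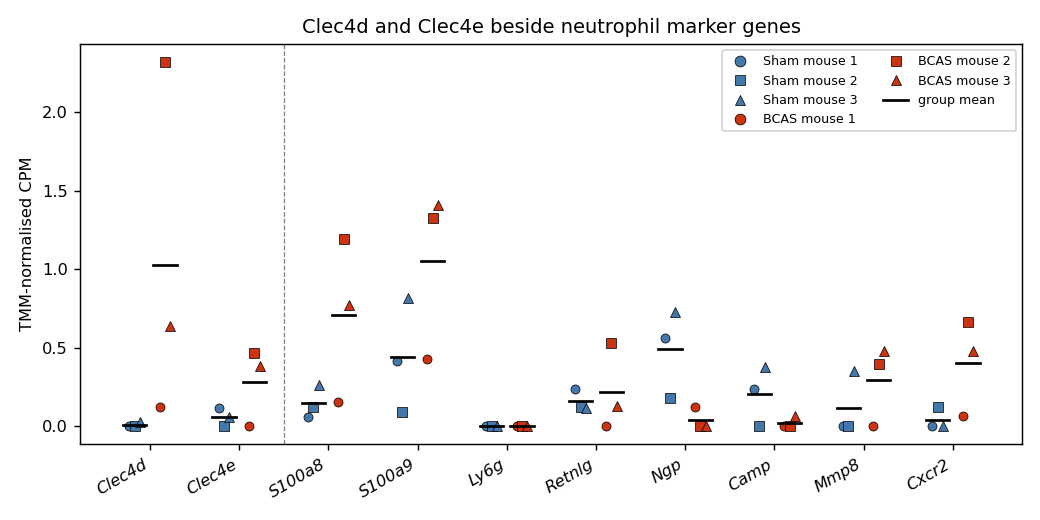
TMM-normalised CPM of Clec4d and Clec4e (left of the dashed line) and of 8 neutrophil marker genes in each of the 6 mice on a linear axis, with sham mice in blue, BCAS mice in red and bars at group means. Ly6g is at 0 in every mouse, BCAS mouse 2 (red square) is the highest BCAS mouse for Clec4d, Clec4e, S100a8, Retnlg and Cxcr2 but not for S100a9, Ngp, Camp or Mmp8, and for Ngp every BCAS mouse lies below every sham mouse.

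The partners of these receptors were read from the same fit. Of 16 adaptor and signalling genes, all tested, 10 were up-regulated and none was down-regulated, with a median log2 fold change of 2.15. Among all tested genes 8.47% were called higher and 0.999% lower, with a median of 0.018. Of the 10 adaptor and signalling genes, Hcst passed the filter on low counts only through the BCAS mice. The adaptor gene Tyrobp, through which Clec5a signals, rose from 7.83 ± 0.422 to 125 ± 27.4 CPM (SD over 3 mice per group), and its log2 fold change was 3.99 (SE 0.16, adjusted P = 4.87e-06, edgeR). The gamma chain gene Fcer1g, partner of Clec4n, Clec4d and Clec4e, rose from 6.03 ± 0.843 to 76.2 ± 20.1 CPM (log2 fold change 3.66, adjusted P = 1.43e-05, edgeR).

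The phosphatase gene Ptpn6, with a log2 fold change of 3.57, and the exchange factor gene Vav1, with 3.11, were likewise up-regulated. Hcst, Syk and Card9, named here for their roles after their values were seen, had log2 fold changes of 1.91, 2.45 and 2.0 and were up-regulated. For Hcst the call is a description only, since the gene passed the filter on low counts only through the BCAS mice. In this list 6 genes were not called. Of these, Prkcd (0.91, adjusted P = 0.0265), Malt1 (0.58, 0.0124) and Bcl10 (0.57, 0.00997) missed only the fold threshold in edgeR, and Ptpn11 (0.13) and Vav3 (-0.25) had an adjusted P of 0.263 or more. Card9 thus passed both thresholds, while its partner genes Bcl10 and Malt1 did not reach a log2 fold change of 1.

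Of 29 other C-type lectin receptor genes, 19 were tested, and 11 were up-regulated and none down-regulated, with a median log2 fold change of 1.26. Among all tested genes 8.47% were called higher and 0.999% lower, with a median of 0.018. Of the 19 lectin genes, 8 passed the filter only through the BCAS mice, and 5 of these 8 are among the 11. The count of 11 and the median of 1.26 are therefore descriptions and no support for a rise of the list. Clec7a, which encodes the beta-glucan receptor Dectin-1, had 36, 18 and 14 counts in sham mice 1 to 3, against 2621, 3004 and 3998 counts in BCAS mice 1 to 3. Its log2 fold change was 7.25 (SE 0.29, adjusted P = 4.87e-06, edgeR), and it was still called higher when libraries were scaled by general myeloid marker counts (4.31, adjusted P = 7.27e-36, edgeR). None of the 6 members tested was called higher on that scale, and Clec4d and Clec4e were not tested on it.

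A further 3 lectin genes had the next largest fitted changes. Clec1b, which encodes the podoplanin receptor, had no count in sham mice and 16, 16 and 21 counts across BCAS mice 1 to 3, which is at least 6.3-fold higher against a floor of 3 counts per sham library. Clec2i had 2 counts in all in sham mice and 68 in BCAS mice, a ratio of 36.8. Its exact 95% counting interval of 9.81 to 310 treats the mates of a pair as independent and is too narrow. Cd72, a co-receptor with an inhibitory motif, had a log2 fold change of 5.68 (SE 0.51, adjusted P = 9.5e-05, edgeR). Clec1b, Clec2i and Cd72 all passed the filter on low counts only through the BCAS mice, so their calls are descriptions only.

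Of the tested lectin genes, 8 were not called. Cd93 (0.83, adjusted P = 0.00115) and Cd302 (0.72, 0.00175) missed only the fold threshold in edgeR. Mgl2 (1.34), Cd209a (0.79), Clec9a (0.66), Pla2r1 (0.63), Clec1a (0.39) and Ly75 (0.18) had adjusted P of 0.0916 or more. Clec9a and Clec1a lie in the same region of chromosome 6 as Clec12a and Clec7a, so neighbours there differed in their calls. Clec4b1, Clec4b2, Cd209d and Cd207 had no counts.

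Of 14 cytokine and enzyme genes known to be induced through Card9 and NF-kappa B in myeloid cells, 8 were tested and 5 were up-regulated. The share called higher among all tested genes was 8.47%. All 5 up-regulated genes of the list passed the filter on low counts only through the BCAS mice, and 6 genes of the list were not tested. The count of 5 is therefore a description and no support for a rise of the list. It was 6 when every gene of at least 1 count was tested. The count was 3 without sham mouse 3 and 3 with glmTreat against a log2 fold change of 1. The chemokine gene Ccl3 had 3, 2 and 1 counts in sham mice 1 to 3, against 453, 522 and 699 counts across BCAS mice 1 to 3. The ratio of the summed counts was 302. Its exact 95% counting interval of 138 to 824 treats the mates of a pair as independent and is too narrow. Ccl4 (5.59), Tnf (4.71) and Ccl2 (3.94) followed on the log2 scale. Ptgs2 (-0.89, adjusted P = 0.0282), Nfkbia (0.63, 0.0139) and Nos2 (0.54, 0.253) were not called in edgeR, and Ptgs2 was lower in BCAS mice at 14.8 ± 6.44 CPM against 27.5 ± 1.75 CPM (SD, n = 3 each).

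Finally, the genes with the most similar pattern over the 6 mice were listed for each member, by the root mean square difference of log2 CPM after centring each gene on its own mean. For Clec5a these were Lrmp (0.055), Fes (0.059) and Dock8 (0.093), Lrmp being the closest match of any member. For Clec4a1 they were Ltbp2 (0.068), Batf (0.24) and Pstpip1 (0.27), for Clec4a3 Glipr2 (0.12), Cd80 (0.12) and Arl5c (0.13), and for Clec4a2 Arhgap6 (0.11), Tspan11 (0.14) and Rxrg (0.14). For Clec12a they were Ptpn18 (0.17), Gm10384 (0.20) and Haao (0.24), and for Clec4n Prelid2 (0.16), Lrmda (0.23) and H2-DMb2 (0.28). Clec4d and Clec4e had no match nearer than Col3a1 (0.56), AB124611 (0.57) and Acod1 (0.65) for Clec4d, and Il1b (0.51), Rsph6a (0.52) and Mapk13 (0.57) for Clec4e. No gene stood on the lists of 2 members. These likenesses describe 6 libraries that share the group difference.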

How the data were processed

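RNA-seq of the whole right hippocampus was available for 3 sham and 3 BCAS mice, grouped by the labels. Reads were trimmed and aligned to mm10 with HISAT2 by the authors, who deposited raw counts per gene, not normalized, beside exonic lengths. Per the file headers, featureCounts 2.0.3 (1.6.3 in the submitters' processing notes) counted both mates of a pair as separate reads on GENCODE genes. It ignored strand and skipped multi-mapped reads. Counts are therefore not independent molecules. The counting intervals treat them as independent, so they are too narrow, and they leave out the spread between mice. Of 54752 genes, 29 had no symbol.

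Levels are in CPM, counts divided by library total and TMM factor. Counts were filtered with filterByExpr (minimum count 10), normalized by TMM (factors 0.964 to 1.05) and tested by edgeR's quasi-likelihood method (edgeR 4.0.16, R 4.3.3) over all 6 libraries, with Benjamini-Hochberg adjustment over all tested genes. Thresholds were those of the study, which used DESeq2. Alternatives were DESeq2 1.42.0, limma-voom (limma 3.58.1), other scalings and filters, glmTreat, a replicate block, halved or thinned counts and leaving out each mouse; fits of Clec4d and Clec4e without the filter in other tools or with a mouse left out were added after seeing the data. The steps were tested on simulated data. The members, gene lists and alternatives were chosen with earlier results of these data known. The text names all members, their 3 most similar genes, the 4 called genes with the largest fold change in each list, the genes not called, and Sf3b3, the gene of a Clec4e ligand (chosen in place of Sap130, a different gene that shares the protein's older name, after its values could be seen; Sap130 had a log2 fold change of 0.03). The values of 1 adaptor and signalling gene that was not called are not reported here. Published single-cell data and other measurements of the study were not analysed here.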

Additional observations from a re-analysis of the deposited data

How the results depend on the processing

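The count of 5 up-regulated receptor genes was 3 with glmTreat against a log2 fold change of 1 and 0 when libraries were scaled by microglia or by general myeloid marker counts, and it was 4 to 6 with a mouse left out. With glmTreat, 6 other lectin genes and 3 cytokine and enzyme genes were called, and 818 genes of all. Without sham mouse 3 there were also 3 cytokine and enzyme genes, with 3 to 6 over the mice left out. The other lectin genes called were 10 to 12 and the adaptor genes 9 to 11. Of all genes, 1762 were called, 5819 without the fold threshold and 1306 to 1976 with a mouse left out. Scaling by microglia markers reversed Clec4a1 (-0.89), Clec4a2 (-1.99) and Clec4a3 (-0.76), and scaling by general myeloid markers reversed Clec4a1 (-1.21), Clec4a2 (-2.31), Clec4a3 (-1.07) and Clec5a (-0.062), as the construction of these scalings divides by counts that rose. Clec4a3 had an adjusted P of 0.0524 with glmTreat, and Clec4d, where the filter kept it, 0.0521 without sham mouse 1 and 0.0528 without sham mouse 3; the cause was not tested. Residual correlations of sham and BCAS mice with the same replicate number were 0.036, -0.314 and -0.158, and not every mouse correlated best with its own number. Residuals centred within groups of 3 mice depend on one another, so these values cannot decide whether the numbers pair the mice. The BCAS columns carry the numbers 2 to 4 in the count tables; by these, sham mouse 2 with BCAS mouse 1 had 0.223 and sham mouse 3 with BCAS mouse 2 had 0.347, and no block on them was fitted. With the replicate block 1595 genes and 4 members were called, without Clec4a1 (adjusted P = 0.0951, edgeR). Low counts kept Clec4d and Clec4e out of the test. Halved counts left Clec4a1 untested.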
